A study of Mus musculus with 38 samples.

Results

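Bulk RNA sequencing of mouse tail skin after vitiligo induction is compared here with tail skin without induction. The comparison uses the 18 of 38 libraries of the series whose titles name vitiligo or no induction and no ABX, the name the labels give the treatment that depleted gut microbes. The 9 vitiligo libraries are labelled as vitiligo induction, and the 9 no_induction libraries as wild type. Strain, genotype beyond these words, age, sex and the way vitiligo was induced are not stated in the labels. Whether each library is a separate mouse is not stated either, and the p-values rest on the variation among these libraries. The other 20 libraries carry ABX or an intraperitoneal injection, and 12 of them (6 vitiligo_ABX and 6 no_induction_ABX) enter one later comparison.

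Vitiligo is a disease in which melanocytes, the pigment cells of skin and hair, are destroyed. In human and mouse lesions, T cells that recognise melanocyte proteins release interferon gamma, and keratinocytes answer with chemokines that draw further T cells. Melanocytes make melanin in organelles called melanosomes, with tyrosinase and its relatives as enzymes, and hand it to keratinocytes of the epidermis and of the growing hair shaft. Tail skin of mice holds melanocytes in its hair follicles and, unlike most furred mouse skin, in its epidermis, above a dermis with white fat.

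Libraries held 15.34e6 to 27.92e6 counts. Keratinocyte markers were high in each of them, with Krt5 at 2010 to 4480 CPM (counts scaled to library size) and Krt10 at 6110 to 17100 CPM, and the dermal collagen gene Col1a1 lay at 769 to 2960 CPM, lowest in vitiligo 001. Y-linked transcripts were present in no_induction 011 and 012 (212 and 188.6 CPM summed) and reached at most 0.306 CPM in the other 16 libraries. Transcripts of intestinal lining (Fabp2 and Vil1, each at 1 CPM or more) were present in vitiligo 000 and 260 and in no_induction 011 and 012. Without the 4 libraries holding gut transcripts 511 genes were called, 49 of the genes named here no longer passed and 85 kept their side of the threshold, and the lists had 8 lipid droplet genes, 7 interferon effectors, 6 class I genes, 4 keratin-associated proteins and 0 pigment genes called. Without the 2 libraries holding Y-linked transcripts 1364 genes were called, and the same lists had 10, 19, 9, 15 and 1. Of the named genes called with all 18 libraries or in the fit concerned, none changed sign.

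With induction, 41 of 74 white fat genes and 48 of 96 genes of the interferon, class I and class II lists were called higher, and 5 of 22 pigment genes and 16 of 71 structural genes of the hair follicle were called lower. Of 13826 genes tested, 1070 were called at an adjusted p under 0.05 (7.74%), 728 higher (5.27%) and 342 lower (2.47%), and the median log2 fold change over all genes tested was 0.01. Among the 728 genes called higher, 214 rose at least 2-fold, and among the 342 called lower, 39 fell at least 2-fold. In 109 genes every vitiligo library lay above every no_induction library, and in 8 genes every vitiligo library lay below. With a length and GC correction the split was 796 higher and 697 lower. The shares called in each gene list are plotted against these backgrounds.

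**Figure D1:**
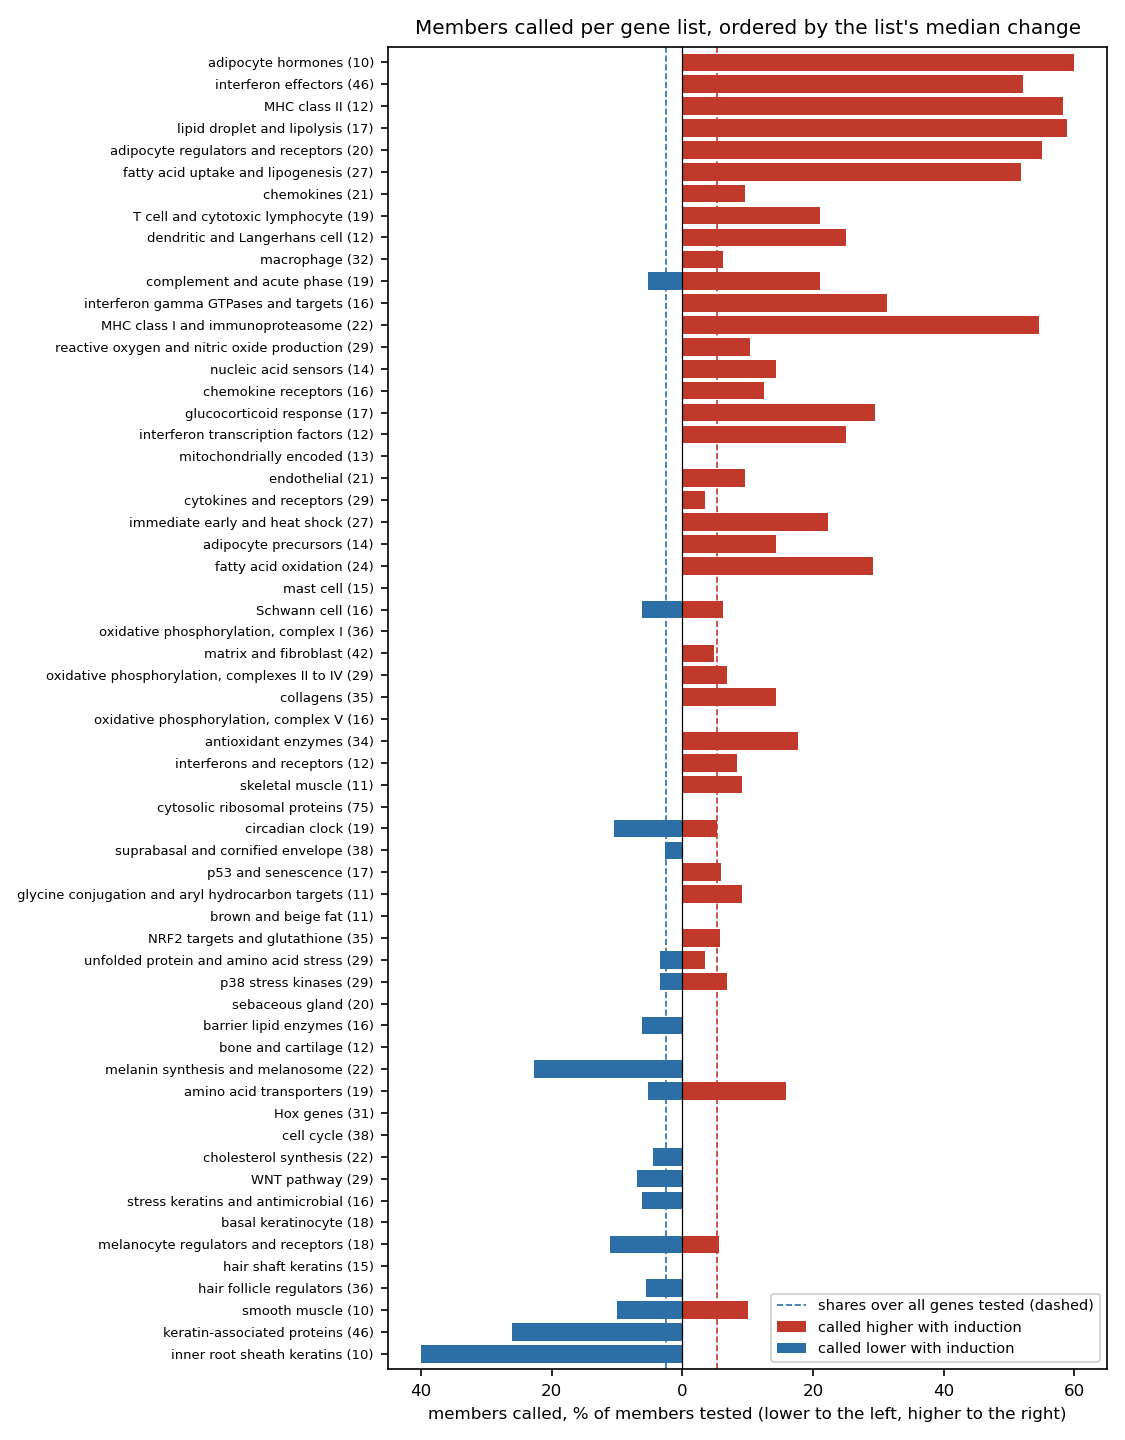
Share of the tested members of each gene list (number tested in parentheses) called higher (right) or lower (left) in vitiligo than in no_induction at an edgeR adjusted p under 0.05, for lists with at least 10 tested members. Dashed lines mark the shares over all genes tested, 5.27% higher and 2.47% lower, and the 4 white fat lists, the interferon effectors and both MHC lists have the largest shares called higher.

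Promoter sequences of some interferon, class I and pigment genes are shown first, with the 2 short motifs that were searched in their lists. The interferon-stimulated response element (ISRE) is a site through which interferons turn on genes, and its core GAAANNGAAA was searched on both strands in windows of 300 bases, from 250 bases before to 50 bases after the transcription start, taken from RefSeq (GRCm38.p6). It occurred in the windows of 18 of 37 interferon effector genes that had one (48.6%), 8 of 11 interferon gamma GTPases and related targets (72.7%) 5 of 18 class I genes (27.8%) and 1 of 8 class II genes (12.5%), called or not, against 3.99% of all 27025 genes with a window. Among called members alone it occurred in 10 of 17 effectors, 4 of 5 GTPases and targets, 4 of 10 class I genes and 0 of 5 class II genes. Capitals mark the core, on the strand read or as its reverse complement, in 3 effectors and in B2m. The windows are at chr4:156200769-156201068 (minus strand), chr19:34583279-34583578 (plus strand), chr5:120777610-120777909 (minus strand) and chr2:122147437-122147736 (plus strand). In Isg15 the core occurs 3 times, each overlapping the next.
Isg15: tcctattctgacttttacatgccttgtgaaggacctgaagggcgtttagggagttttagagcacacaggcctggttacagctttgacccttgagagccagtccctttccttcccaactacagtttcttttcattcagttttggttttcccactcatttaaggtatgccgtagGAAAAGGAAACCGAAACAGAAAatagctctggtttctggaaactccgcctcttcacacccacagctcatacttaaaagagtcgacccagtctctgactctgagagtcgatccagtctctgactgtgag
Ifit3: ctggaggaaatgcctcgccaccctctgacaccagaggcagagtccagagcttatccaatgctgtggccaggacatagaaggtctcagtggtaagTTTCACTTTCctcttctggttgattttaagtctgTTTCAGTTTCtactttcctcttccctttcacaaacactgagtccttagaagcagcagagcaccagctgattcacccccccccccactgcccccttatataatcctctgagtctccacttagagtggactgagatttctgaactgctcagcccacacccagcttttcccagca
Oas3: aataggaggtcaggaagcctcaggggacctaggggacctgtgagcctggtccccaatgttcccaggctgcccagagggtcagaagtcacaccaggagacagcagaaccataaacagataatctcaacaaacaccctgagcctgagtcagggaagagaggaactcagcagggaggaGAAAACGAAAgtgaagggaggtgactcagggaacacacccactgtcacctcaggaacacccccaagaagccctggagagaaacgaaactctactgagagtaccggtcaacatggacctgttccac
B2m: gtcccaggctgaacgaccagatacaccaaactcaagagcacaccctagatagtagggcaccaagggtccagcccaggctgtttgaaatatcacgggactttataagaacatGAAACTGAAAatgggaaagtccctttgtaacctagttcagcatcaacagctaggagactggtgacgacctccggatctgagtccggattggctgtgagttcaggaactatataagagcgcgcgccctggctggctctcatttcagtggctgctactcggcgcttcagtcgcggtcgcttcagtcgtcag

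In the pigment list a different motif was searched. MITF, the master transcription factor of melanocytes, binds E-boxes of the form CATGTG, which occurred on either strand in the windows of 6 of 18 genes of the melanin and melanosome list (33.3%), namely Dct, Oca2, Slc24a5, Trpm1, Tyr and Tyrp1, against 15.9% of all genes. Of the 4 called pigment genes with a window 3 held it. Capitals mark it in the 3 genes of the tyrosinase family, of which Tyr did not pass the test. Their windows are at chr7:87493463-87493762 (minus strand), chr4:80833963-80834262 (plus strand) and chr14:118052197-118052496 (minus strand). A match in these letters is a description of the window and was not tested as a binding site.
Tyr: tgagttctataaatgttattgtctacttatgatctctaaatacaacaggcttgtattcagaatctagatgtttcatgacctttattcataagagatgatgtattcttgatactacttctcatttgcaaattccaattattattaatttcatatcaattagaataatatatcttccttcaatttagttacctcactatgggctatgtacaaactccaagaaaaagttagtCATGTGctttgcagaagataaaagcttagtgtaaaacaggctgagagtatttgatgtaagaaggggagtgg
Tyrp1: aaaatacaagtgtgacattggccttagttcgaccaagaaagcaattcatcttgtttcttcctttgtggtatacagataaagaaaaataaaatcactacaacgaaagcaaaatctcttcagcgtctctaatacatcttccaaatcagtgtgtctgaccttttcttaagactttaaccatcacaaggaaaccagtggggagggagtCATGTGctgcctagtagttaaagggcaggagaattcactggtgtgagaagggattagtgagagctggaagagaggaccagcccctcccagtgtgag
Dct: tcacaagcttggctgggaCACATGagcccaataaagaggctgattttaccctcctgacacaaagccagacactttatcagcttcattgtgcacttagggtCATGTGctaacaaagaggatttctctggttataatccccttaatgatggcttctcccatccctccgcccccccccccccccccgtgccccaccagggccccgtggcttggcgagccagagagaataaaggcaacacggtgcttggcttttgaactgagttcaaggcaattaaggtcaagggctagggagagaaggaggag

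Pigment transcripts were lower in most, and not in all, of the vitiligo libraries. Of 22 tested genes of melanin synthesis and the melanosome, 5 were called lower and 0 higher (22.7% of the list lower, against 2.47% of all genes). The median log2 fold change was -0.12 against 0.01 for all genes. The 5 were Pmel, Tyrp1, Dct, Oca2 and Mreg. Pmel, whose protein forms the fibrils on which melanin is laid down, ranged from 2.57 to 26.3 CPM (median 6.65) in vitiligo and from 17.0 to 37.6 CPM (median 26.5) in no_induction. Tyrp1, an enzyme that stabilises and assists tyrosinase, lay at 2.06 to 22.4 CPM (median 7.26) and at 21.2 to 33.0 CPM (median 25.3). Dct, which converts dopachrome, lay at 3.24 to 26.4 CPM (median 8.34) against 23.8 to 37.5 CPM (median 28.5). The groups overlapped only at the top of the vitiligo range, where 062, 063 and 001 held 18 to 26.3 CPM of Pmel, and the other 6 vitiligo libraries lay below every no_induction library in each of the 3 genes, as did 062 in Tyrp1 and Dct. The log2 fold changes were -1.32 ± 0.36 (SE; adjusted p = 0.0301) for Pmel, -1.26 ± 0.35 (adjusted p = 0.0341) for Tyrp1 and -1.15 ± 0.33 (adjusted p = 0.0348) for Dct. Oca2, a transporter that sets melanosome pH, was at 0 to 1.26 CPM against 1.03 to 2.12 CPM (-1.45 ± 0.44, adjusted p = 0.0463), and Mreg, which helps to move melanosomes, changed by -0.29 ± 0.09 (adjusted p = 0.0434).

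The other genes of the tyrosinase pathway followed the same libraries without passing the test. Tyr, the rate-limiting enzyme, ranged from 1.31 to 19.5 CPM (median 6.11) in vitiligo and from 9.81 to 23.9 CPM (median 11.4) in no_induction, and 7 vitiligo libraries lay below every no_induction library (-0.85 ± 0.37, adjusted p = 0.155). Its 2 highest values in vitiligo were 19.5 CPM in 001 and 11.5 CPM in 063. Mlana, a melanosome protein, was at 0.306 to 12.5 CPM against 1.98 to 13.7 CPM (-0.53 ± 0.46, adjusted p = 0.478). Without vitiligo 001, Tyr passed (adjusted p = 0.0213). Between -0.85 and -0.60 stood Tyr, the melanosomal exchanger Slc24a5 (-0.76 ± 0.33, adjusted p = 0.146) and the channel Trpm1 (-0.60 ± 0.37, adjusted p = 0.311). The ubiquitous sorting genes Hps4, Hps5, Ap3b1 and Lyst had values of 0.01 to 0.04. Apart from Tyr and Mlana, these genes were chosen after their values were seen, from a list with 15 negative and 7 positive values. Calls in this list rested on single libraries, with 0 to 7 members called when 1 library was left out (0 without vitiligo 039, 047, 000 or 260 or without no_induction 022 or 023), 1 without the libraries holding Y-linked transcripts and 0 without those holding gut transcripts.

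Among 18 regulators and receptors of melanocytes 2 were called lower and 1 higher, with a median of -0.24 and 11 negative values. Over all genes 2.47% were called lower and 5.27% higher. The mean log2(CPM + 1) of this list was 4.52 to 4.75 in vitiligo 006, 047, 000, 260 and Vitiligo261, below the 4.77 to 5.05 of no_induction, and 4.82 to 5.05 in the other 4 vitiligo libraries. The count called lower was 1 to 6 when 1 library was left out, highest without vitiligo 001 (6) and 062 (5). Mitf was at 24.5 to 35.4 CPM with induction and 24 to 32.8 CPM in no_induction (0.10 ± 0.09, adjusted p = 0.488), and Sox10, which turns Mitf on and is shared with Schwann cells, was at 8.41 to 11 against 7.20 to 14.3 CPM (-0.04 ± 0.12, adjusted p = 0.875). Kit, the receptor for stem cell factor, which mast cells express as well, was at 40.2 to 63.1 against 33.6 to 63.7 CPM (0.25 ± 0.12, adjusted p = 0.188). The mast cell list had 0 of 15 members called, and counts per gene do not separate the melanocyte isoform of Mitf from the others. Of this list, Zeb2 rose (0.79 ± 0.19, adjusted p = 0.0151) and Erbb3 (-0.37 ± 0.09, adjusted p = 0.0147) and Tfap2a (-0.45 ± 0.12, adjusted p = 0.0233) fell. All 3 are expressed beyond melanocytes, Zeb2 in macrophages and fibroblasts, Erbb3 in keratinocytes and Schwann cells and Tfap2a in keratinocytes. In bulk skin, fewer cells of a type and less RNA per cell cannot be told apart.

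Among 9 tested ligands and hormones that act on melanocytes, 1 was called higher, beside 5.27% of all genes. Fgf2, a growth factor made by keratinocytes and fibroblasts, ranged from 16.2 to 30.9 CPM (median 22) in vitiligo and from 9.22 to 17.4 CPM (median 12) in no_induction (0.90 ± 0.15, adjusted p = 0.000633), with 7 vitiligo libraries above every no_induction library. Kitl, which encodes stem cell factor, was at 34.3 to 73.7 against 31.0 to 70.9 CPM (0.30 ± 0.16, adjusted p = 0.243), and Edn1, which encodes endothelin, at 5.28 to 12 against 7 to 12.9 CPM (-0.26 ± 0.15, adjusted p = 0.275). Neither passed the test.

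**Figure D2:**
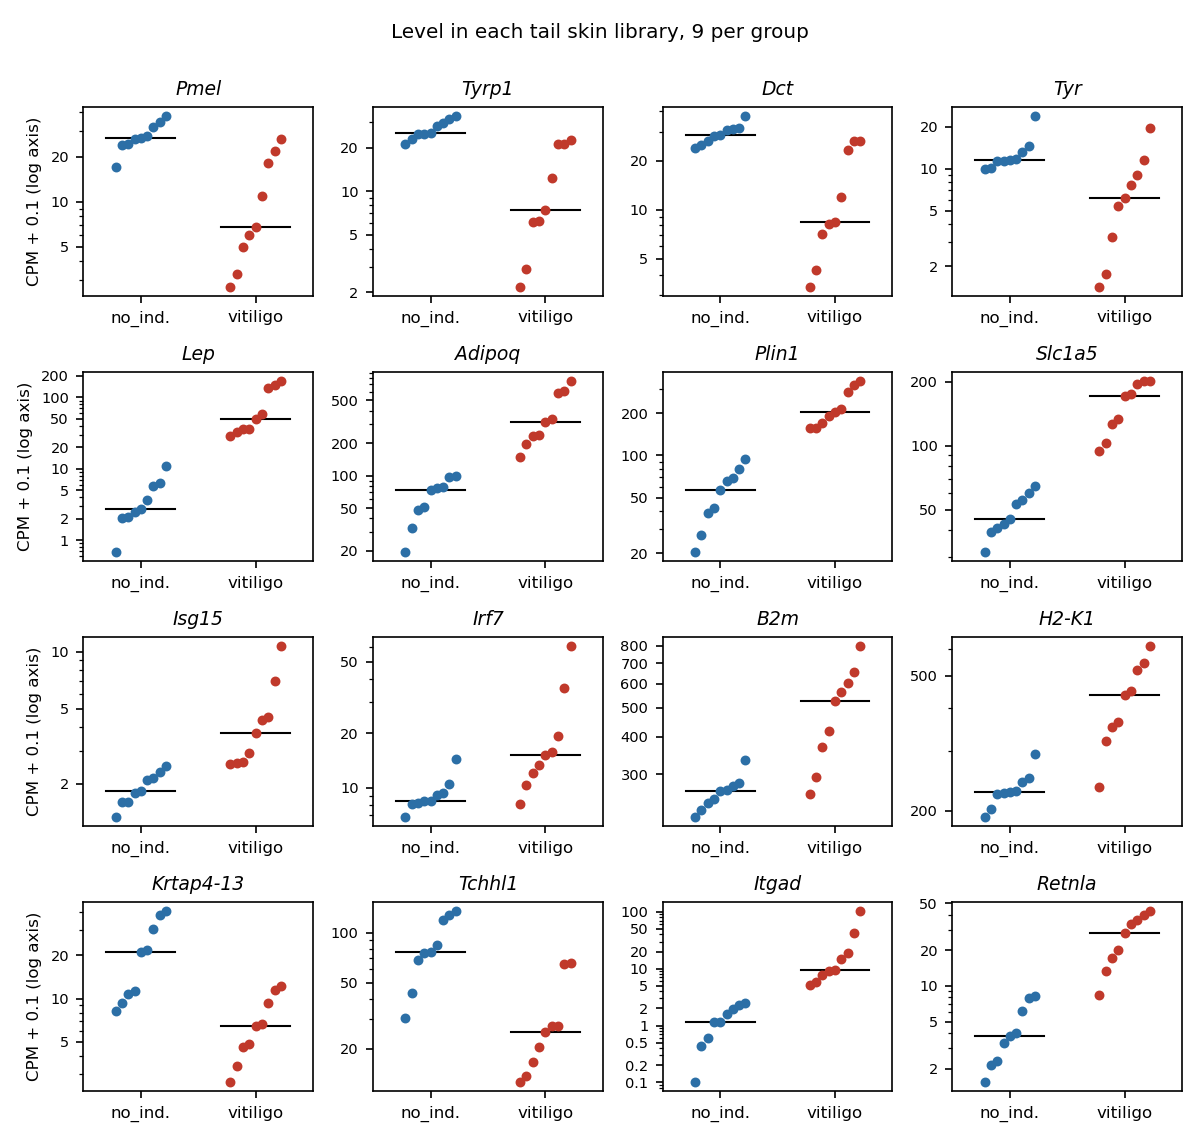
Level of 16 genes in each of the 9 no_induction (blue) and 9 vitiligo (red) libraries, as CPM + 0.1 on a log axis, with libraries sorted by value within a group and a line at the median. Lep, Adipoq, Plin1, Slc1a5, Isg15, Itgad and Retnla do not overlap between the groups, while Pmel, Tyrp1 and Dct overlap only at the top of the vitiligo range.

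Genes of white fat gave the clearest separation. Of 74 tested members of 4 white fat lists, 41 were called higher and 0 lower, against 5.27% of all genes called higher. In 22 of the 74 every vitiligo library lay above every no_induction library, as it did in 109 of all 13826 genes tested. The shares called higher were 6 of 10 hormones (median log2 fold change 1.88), 10 of 17 genes of the lipid droplet and lipolysis (0.77), 14 of 27 of fatty acid uptake and lipogenesis (0.64) and 11 of 20 regulators and receptors (0.68), against a median of 0.01 for all genes. Lep, which encodes leptin, the hormone by which fat reports its energy store, was at 28.9 to 170 CPM (median 49.7) in vitiligo and 0.573 to 10.7 CPM (median 2.62) in no_induction. Adipoq, which encodes adiponectin, ranged from 150 to 754 CPM (median 313) and from 19.3 to 98.3 CPM (median 72.8). Libraries Vitiligo000, Vitiligo260 and Vitiligo261 were highest, at 137 to 170 CPM of Lep and 578 to 754 CPM of Adipoq, while the other 6 vitiligo libraries had 28.9 to 58.1 and 150 to 336 CPM. The log2 fold changes were 4.29 ± 0.49 (adjusted p = 3.96e-05) for Lep and 2.57 ± 0.34 (adjusted p = 9.68e-05) for Adipoq. Cfd, the complement protease adipsin, and Rbp4, the retinol carrier, changed by 1.77 ± 0.26 (adjusted p = 0.00024) and 1.99 ± 0.34 (adjusted p = 0.000881).

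The machinery of fat storage and release rose on both sides. On the lipid droplet, the coat proteins Plin1 (20.2 to 94.5 CPM in no_induction and 156 to 341 CPM in vitiligo, 2.05 ± 0.26, adjusted p = 6.8e-05) and Plin4 (1.97 ± 0.20, adjusted p = 1.42e-05) rose, as did Cidec (2.35), which fuses droplets. Hormone-sensitive lipase Lipe (1.58 ± 0.19, adjusted p = 6.08e-05), the triglyceride lipase Pnpla2 (1.24) and the glycerol channel Aqp7 (2.21 ± 0.24, adjusted p = 2.35e-05) rose too. For uptake and synthesis, Lpl, which frees fatty acids from lipoproteins, lay at 315 to 1330 CPM against 101 to 342 CPM (1.99 ± 0.25, adjusted p = 6.8e-05), and Slc2a4, the insulin-regulated glucose transporter, at 20.5 to 46.0 against 10 to 19.4 CPM (1.04 ± 0.14, adjusted p = 0.000136). Pparg, the master regulator of adipocytes, changed less than the storage and release genes just named. It lay at 25.1 to 38.2 CPM in no_induction and 39.5 to 80.5 CPM in vitiligo (0.89 ± 0.13, adjusted p = 0.000197), again without overlap.

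Of the 74 white fat genes 33 were not called. Among them are some that skin also uses outside fat, chosen here after their values were seen. Plin2, a droplet coat found in most cells, stood at -0.11, and the lipogenic enzymes Fasn at 0.33, Acly at -0.10, Elovl6 at -0.05 and Me1 at 0.00, none of them called. The sebaceous gland list had 0 of 20 members called (median -0.09), as did the brown and beige fat list (0 of 11, median 0.01), in which Ppargc1a had the smallest p (0.80 ± 0.25, adjusted p = 0.0557), and Ucp1, the defining brown fat gene, reached at most 0.485 CPM. Of 14 adipocyte precursor genes, Zfp423 (0.61 ± 0.15, adjusted p = 0.0158) and Col15a1 (0.65 ± 0.15, adjusted p = 0.00938) were called higher, and 0 were without the libraries holding gut transcripts. The mean log2(CPM + 1) level of the lipid droplet list was 6.42 to 6.96 in vitiligo and 5.48 to 6.03 in no_induction. It separated the groups without overlap, so a fit that holds this level as a covariate called 0 genes (756 at an unadjusted p under 0.05), and the fat level and the induction cannot be told apart in these libraries.

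Genes with other main uses rose with the fat genes. Slc1a5, a glutamine transporter, was at 94.5 to 202 CPM with induction and 31.3 to 64.7 CPM in no_induction (1.70 ± 0.17, adjusted p = 8.56e-06), and it had the third smallest p of all genes tested. Slc7a10, a transporter of small neutral amino acids that white adipocytes express, was at 8.77 to 27 against 0.746 to 5.23 CPM (2.74 ± 0.32, adjusted p = 4.39e-05). Nnat, a membrane proteolipid gene listed here with the fat hormones, was at 2.45 to 52.3 against 0.337 to 1.39 CPM (4.18 ± 0.53, adjusted p = 6.8e-05), highest in vitiligo 260. Of 24 genes of mitochondrial and peroxisomal fatty acid oxidation, 7 were called higher and 0 lower, including Acadl (0.48 ± 0.07, adjusted p = 0.000246), Acads (0.49 ± 0.09, adjusted p = 0.00118) and Acaa1b (1.47 ± 0.23, adjusted p = 0.000363). Respiratory chain genes moved little, with 0 of 36 called in complex I, 2 of 29 in complexes II to IV (Sdha, 0.23 ± 0.05, and Sdhd, 0.31 ± 0.07) and 0 of 16 in complex V. Over all genes 5.27% were called higher.

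Interferon-stimulated genes were higher in most vitiligo libraries. Of 46 tested interferon effectors, 24 were called higher and 0 lower (52.2% of the list higher, against 5.27% of all genes). The median log2 fold change was 0.88. Isg15, a ubiquitin-like modifier, ranged from 2.45 to 10.6 CPM (median 3.60) in vitiligo and from 1.23 to 2.40 CPM (median 1.74) in no_induction, so every vitiligo library lay above every no_induction library. Vitiligo 000 was highest with 10.6 CPM and 047 next with 6.91 CPM. The change was 1.3 ± 0.27 (adjusted p = 0.00535). Larger changes were seen in Oas3, which makes the second messenger that activates RNase L (1.98 ± 0.43, adjusted p = 0.00667), in Zbp1, a sensor of left-handed nucleic acid (1.62 ± 0.40, adjusted p = 0.016), and in Mx1, an antiviral GTPase (1.43 ± 0.39, adjusted p = 0.0295). Ifi27 had the smallest p of the list, at 48.2 to 93.0 CPM against 26.3 to 49.3 CPM (0.98 ± 0.15, adjusted p = 0.000313).

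Upstream of the effectors, fewer genes passed. Of 12 tested interferon transcription factors, Irf7, Irf8 and Nmi were called higher (25.0% of the list, against 5.27% of all genes). Irf7, which amplifies the type I response, was at 8.02 to 61.0 CPM (median 15.1) in vitiligo and 6.72 to 14.3 CPM (median 8.35) in no_induction, with 61.0 CPM in vitiligo 000 and 35.7 CPM in 047 (1.21 ± 0.32, adjusted p = 0.0235, and 0.0528 without vitiligo 047). Among nucleic acid sensors 2 of 14 rose, Ifih1 (0.72 ± 0.17, adjusted p = 0.0113) and Rigi (0.40 ± 0.11, adjusted p = 0.0341). Of 12 interferons and receptors tested, Ifngr1, a chain of the interferon gamma receptor, rose (0.51 ± 0.14, adjusted p = 0.0302). This 1 call of 12 is near the 5.27% of all genes called higher. Without the libraries holding gut transcripts these 3 lists had 0 calls each. Left-out single libraries gave 1 to 5 transcription factors, 1 to 5 sensors and 0 to 2 interferons and receptors, most without vitiligo 001, and Ifngr1 lost its call without any of 8 libraries. Ifng itself did not pass the count filter and reached at most 0.266 CPM in a vitiligo library and 0.117 CPM in a no_induction library, which is too few reads to show a change.

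**Figure D3:**
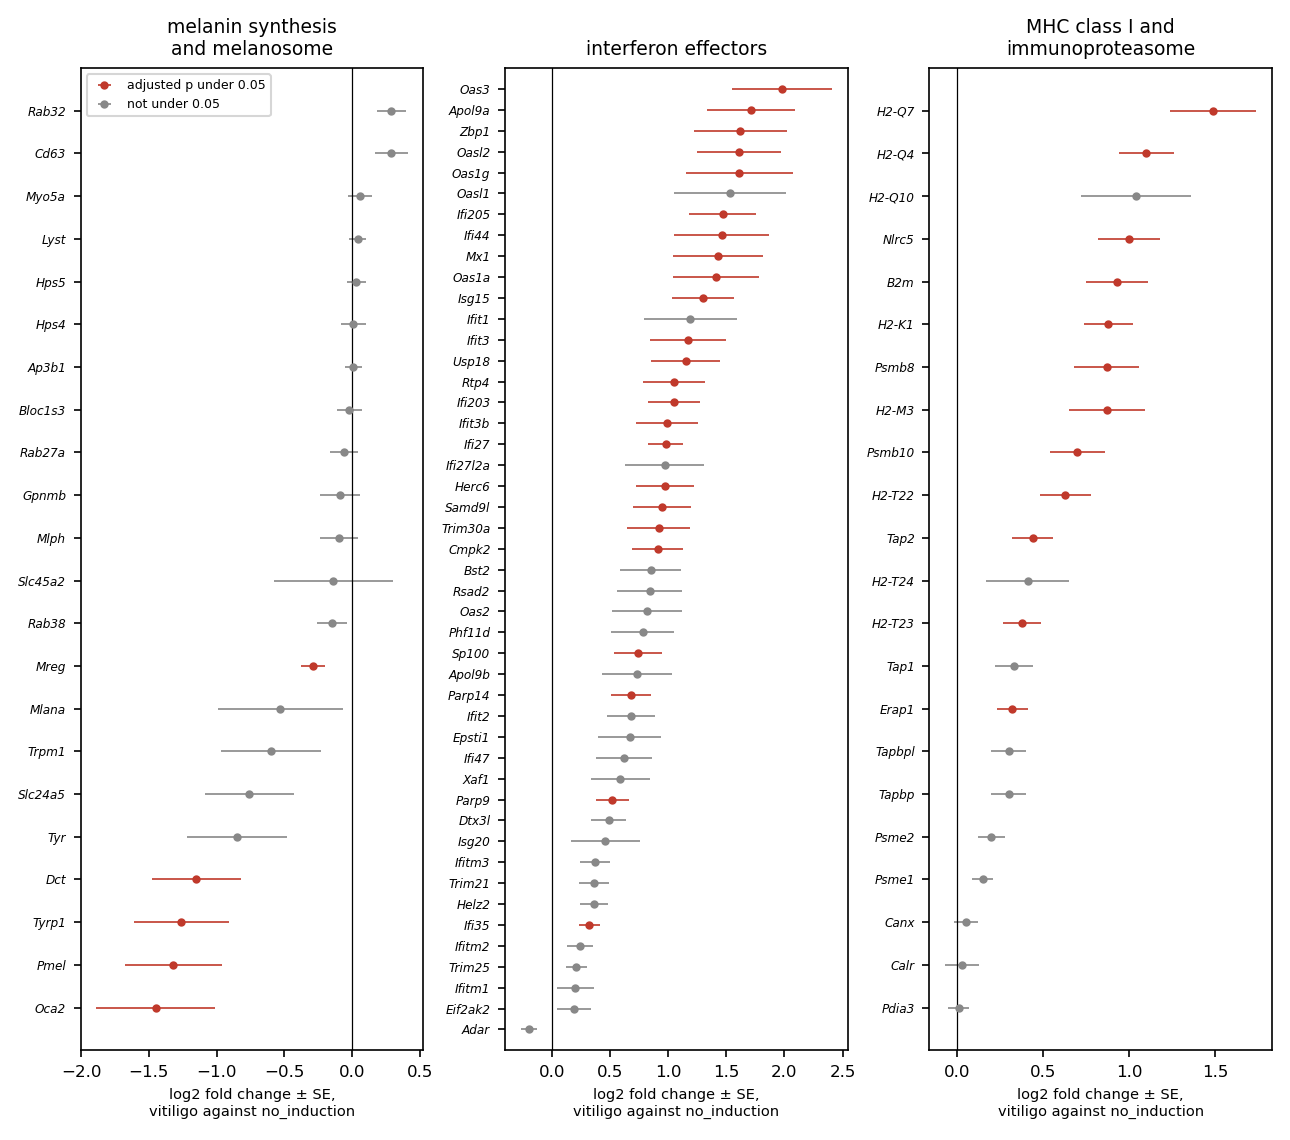
Log2 fold change (vitiligo against no_induction) of each tested member of the pigment, interferon effector and MHC class I lists, with bars of 1 standard error and red points for an edgeR adjusted p under 0.05. Of the interferon effectors 45 of 46 have a positive value, and of the pigment genes 15 of 22 a negative one.

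Antigen presentation rose with the interferon effectors. Class I molecules display peptides from inside the cell to CD8 T cells. Of 22 genes of this list 12 were called higher and 0 lower (median 0.42), against 5.27% of all genes called higher. B2m, the shared light chain, ranged from 258 to 800 CPM (median 525) in vitiligo and from 216 to 334 CPM (median 265) in no_induction, and H2-K1, a heavy chain, from 235 to 611 CPM (median 438) and from 191 to 293 CPM (median 227). Vitiligo 000 was highest in both and vitiligo 001 lowest, and the groups overlapped through 001 in both genes and through 062 in B2m. The changes were 0.93 ± 0.18 (adjusted p = 0.00223) for B2m and 0.88 ± 0.14 (adjusted p = 0.00061) for H2-K1. Nlrc5, the transactivator of class I genes, changed by 1.00 ± 0.18 (adjusted p = 0.00131), the nonclassical gene H2-Q7 by 1.49 ± 0.25 (adjusted p = 0.000768), H2-Q4 by 1.10 ± 0.16 (adjusted p = 0.000158) and the immunoproteasome subunits Psmb8 by 0.87 and Psmb10 by 0.70. Class I genes resemble one another, so reads may be shared among them and their single values are uncertain. The endoplasmic reticulum chaperones Calr, Canx and Pdia3 stood at 0.01 to 0.05.

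Class II genes, which antigen-presenting cells use to show peptides to CD4 T cells, were called higher in 7 of 12 cases (median 0.82), in 1 case without the libraries holding gut transcripts, and in 0 at a fold of at least 2. For this list and the next 2, the share of all genes called higher was 5.27%. Cd74, the invariant chain, was at 246 to 803 CPM (median 669) in vitiligo and 229 to 457 CPM (median 284) in no_induction (0.92 ± 0.19, adjusted p = 0.00439, and 0.0518 without the libraries holding gut transcripts). H2-Eb1 (0.89 ± 0.19, adjusted p = 0.00517) and H2-DMa, which loads peptides (0.86 ± 0.17, adjusted p = 0.00285), moved alike. Cd207, the marker of Langerhans cells, was at 7.22 to 11.9 against 2.49 to 7.56 CPM (0.97 ± 0.19, adjusted p = 0.00353), and Cd209a (0.95 ± 0.22, adjusted p = 0.0121) and Itgax (0.77 ± 0.23, adjusted p = 0.0421) were the other members called of 12 in the dendritic and Langerhans cell list, where 1 call was left without the libraries holding gut transcripts and 6 were made without vitiligo 001. Of 16 interferon gamma GTPases and targets 5 rose, led by Serpina3g (1.31 ± 0.22, adjusted p = 0.000856) and Gbp2 (1.14 ± 0.22, adjusted p = 0.00312), with 2 calls without the libraries holding gut transcripts and 10 without vitiligo 001.

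T cell transcripts were low in both groups. Cd8a did not pass the count filter, lay at 0.309 to 1.96 CPM with induction and 0 to 0.361 CPM in no_induction, and was highest in vitiligo 006 (1.96 CPM) and 039 (1.28 CPM). Of 19 T cell and cytotoxic lymphocyte genes that passed, out of 35 in the list, 4 were called higher and 0 lower (5.27% of all genes were called higher): the activation marker Cd69 (1.07 ± 0.28, adjusted p = 0.0234), the pan-leukocyte gene Ptprc (0.86 ± 0.23, adjusted p = 0.0257), Itgae, an integrin of resident T cells and some dendritic cells (0.56 ± 0.15, adjusted p = 0.0303), and the receptor Klrk1 (0.83 ± 0.24, adjusted p = 0.0359). Of the 19 genes 18 had a positive value, with a median log2 fold change of 0.56 against 0.01 for all genes. The count called was 0 without the libraries holding gut transcripts, 1 without vitiligo 039, 047 or Vitiligo261 or no_induction 021 or 023, 2 without vitiligo 006 or 000 or no_induction 011, and 7 without vitiligo 001. Of 21 chemokines Cxcl9 and Cxcl1 were called, and 12 and 11 were called without vitiligo 001 and no_induction 005. Cxcl9, induced by interferon gamma, was at 0.62 to 11.9 CPM (median 3.49) in vitiligo and 0.31 to 2.12 CPM (median 0.498) in no_induction (2.55 ± 0.47, adjusted p = 0.00166), highest in vitiligo 047. Cxcl10 was at 0.611 to 5.07 against 0.222 to 1.83 CPM (1.5 ± 0.51, adjusted p = 0.073). Cxcl1, a neutrophil attractant, was at 0.776 to 6.56 against 0.671 to 1.33 CPM (1.58 ± 0.33, adjusted p = 0.00535), while 0 of 7 neutrophil genes were called.

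Of 32 macrophage genes tested 29 had a positive value, with a median log2 fold change of 0.52 against 0.01 for all genes. Calls were fewer, 2 of 32 (6.25%, near the 5.27% of all genes called higher), and both were large changes. Itgad, an integrin of macrophages, was at 5.07 to 103 CPM (median 9.21) in vitiligo and 0 to 2.44 CPM (median 1.07) in no_induction (4.29 ± 0.66, adjusted p = 0.00034). Vitiligo 260 and 000 stood apart at 103 and 43.1 CPM, and without the 4 libraries holding gut transcripts the change was 2.70 (adjusted p = 0.000972). Retnla, which alternatively activated macrophages secrete and adipose tissue also expresses, was at 8.26 to 42.9 against 1.43 to 8.11 CPM (2.63 ± 0.35, adjusted p = 9.68e-05). Neither gene overlapped between the groups. Without vitiligo 001 the macrophage count was 14, and without no_induction 005 it was 5. Other large rises outside these groups were Hp, the haemoglobin scavenger of liver and fat (33.5 to 391 against 4.92 to 67.3 CPM, 2.72 ± 0.48, adjusted p = 0.00133), Bpifa6 (3.25 ± 0.62, adjusted p = 0.00266), the muscle light chain Myl1 (2.63 ± 0.32, adjusted p = 5.63e-05) and the major urinary protein genes Mup18 (2.76 ± 0.62, adjusted p = 0.00953) and Mup9 (3.14 ± 0.59, adjusted p = 0.00222), near-identical copies with uncertain single values. All 4 tested genes of the liver list had a positive value (median 0.81), and the skeletal muscle list had a median of 0.07. In the skeletal muscle list Myl1 was the 1 gene called of 11 tested, and in the liver list Alb was 1 of 4 (1.55 ± 0.37, adjusted p = 0.0133), with the liver list level highest in vitiligo 000 (3.93) and 260 (2.48) against 0.93 to 2.22 in the other 16 libraries. The part of other tissue in Mup18, Hp and Alb was not tested, and Mup18 changed by 1.78 (adjusted p = 0.0979) without the libraries holding gut transcripts.

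Structural genes of the growing hair were lower. Of 71 tested genes of the hair shaft, the inner root sheath and the keratin-associated proteins, 16 were called lower and 0 higher, 70 of 71 had a negative value, and the median was -0.56. Keratin-associated proteins crosslink the keratin of the hair shaft, and 12 of 46 were called lower (26.1%, against 2.47% of all genes), 7 of them of the Krtap4 family. Krtap4-13 was at 2.51 to 12.1 CPM (median 6.40) in vitiligo and 8.06 to 40.7 CPM (median 21.1) in no_induction (-1.65 ± 0.36, adjusted p = 0.00694), and Krtap9-1 at 42.1 to 172 against 75.9 to 349 CPM (-1.36 ± 0.31, adjusted p = 0.00938). These genes have near-identical copies, and their single values are uncertain. The spread within no_induction was wide, with 30.3 to 40.7 CPM of Krtap4-13 in 001, 022 and 023 and 8.06 to 11.2 CPM in 003, 005, 011 and 012.

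The inner root sheath, which moulds the growing hair, had 4 of 10 members lower and 0 higher (median -0.84). Tchhl1, a relative of trichohyalin, was at 12.4 to 65.9 CPM (median 25.1) in vitiligo and 30.7 to 135 CPM (median 76.6) in no_induction (-1.48 ± 0.34, adjusted p = 0.011), and Tchh, trichohyalin itself, at 688 to 2760 against 1190 to 3890 CPM (-0.93 ± 0.27, adjusted p = 0.0384). Krt27 (-1.0 ± 0.29, adjusted p = 0.0384) and Krt26 (-1.08 ± 0.30, adjusted p = 0.0334) were the other members called. Tchh, Krt27 and Krt26 each lost their call when any of 8 to 11 single libraries was left out, while Tchhl1 kept it in all 18 such fits. Without the libraries holding gut transcripts 0 of the 4 were called (Tchhl1 adjusted p = 0.0506), and the count was 8 without vitiligo 001 and 7 without no_induction 005. None of 15 hair shaft keratins passed (median -0.30), and Krt39 had the smallest p (-0.45 ± 0.18, adjusted p = 0.115). Of 36 follicle regulators, Ovol1 (-0.41 ± 0.11, adjusted p = 0.0309) and Fgf22 (-0.32 ± 0.08, adjusted p = 0.0194) fell, with 0 calls without the libraries holding gut transcripts and 11 without vitiligo 001. Over all genes 2.47% were called lower. Foxn1, the regulator of hair keratins, stood at -0.33 ± 0.11 (adjusted p = 0.0794).

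Epidermal and growth genes moved little. The basal keratinocyte list had 0 of 18 members called (Krt5, -0.43 ± 0.15, adjusted p = 0.0745), and the cornified envelope list 1 of 38 (Sprr1a, lower, -0.88 ± 0.22, adjusted p = 0.0158). The cell cycle list had 0 of 38 called (median -0.15) and cytosolic ribosomal proteins 0 of 75. Prdm1, which represses other genes in keratinocytes, sebaceous cells and plasma cells, was at 49.0 to 64.1 CPM against 63 to 72.5 CPM (-0.35 ± 0.05, adjusted p = 0.000332), a narrow and steady difference in which 8 of 9 vitiligo libraries lay below every no_induction library.

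The changes did not fall evenly on the vitiligo libraries. The plot of list levels by library shows the fat lists raised in all 9 and the other lists raised or lowered to differing degrees. List levels are averages of log2(CPM + 1) over members. In the melanin list, 062, 063 and 001 stood at 4.55 to 4.62, within the 4.44 to 4.82 of no_induction, and the other 6 at 3.69 to 4.23. In the interferon effector list, the same 3 libraries were the lowest of the group at 2.72 to 3.07, with 001 and 062 within the 2.51 to 3.01 of no_induction and 063 (3.07) above it, next to 006 (3.08), and the others reached 4.28. In the class I list they were again the lowest, with 001 (5.06) within the 4.96 to 5.26 of no_induction and 063 (5.39) and 062 (5.46) above it, and the others had 5.55 to 5.98. Only vitiligo 001 lay within the no_induction range in all 3 lists. This order is a description of 9 libraries chosen after their values were seen, and it was not tested. Pigment and interferon were not ranked alike among the 6, since Vitiligo006 and Vitiligo261 had the lowest melanin levels (3.69 and 3.75) with interferon levels of 3.08 and 3.37, and 000, with the highest interferon level (4.28), had a melanin level of 3.98. Among the 6 libraries low in pigment, levels of keratin-associated proteins were 5.90 to 6.19 in Vitiligo000, Vitiligo261, Vitiligo047 and Vitiligo006, 6.55 in 260 and 6.78 in 039. In the other 3 they were 6.37 in 062, 6.48 in 001 and 7.20 in 063, and in no_induction 6.29 to 7.62. The part of hair growth in the pigment values was not tested.

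**Figure D4:**
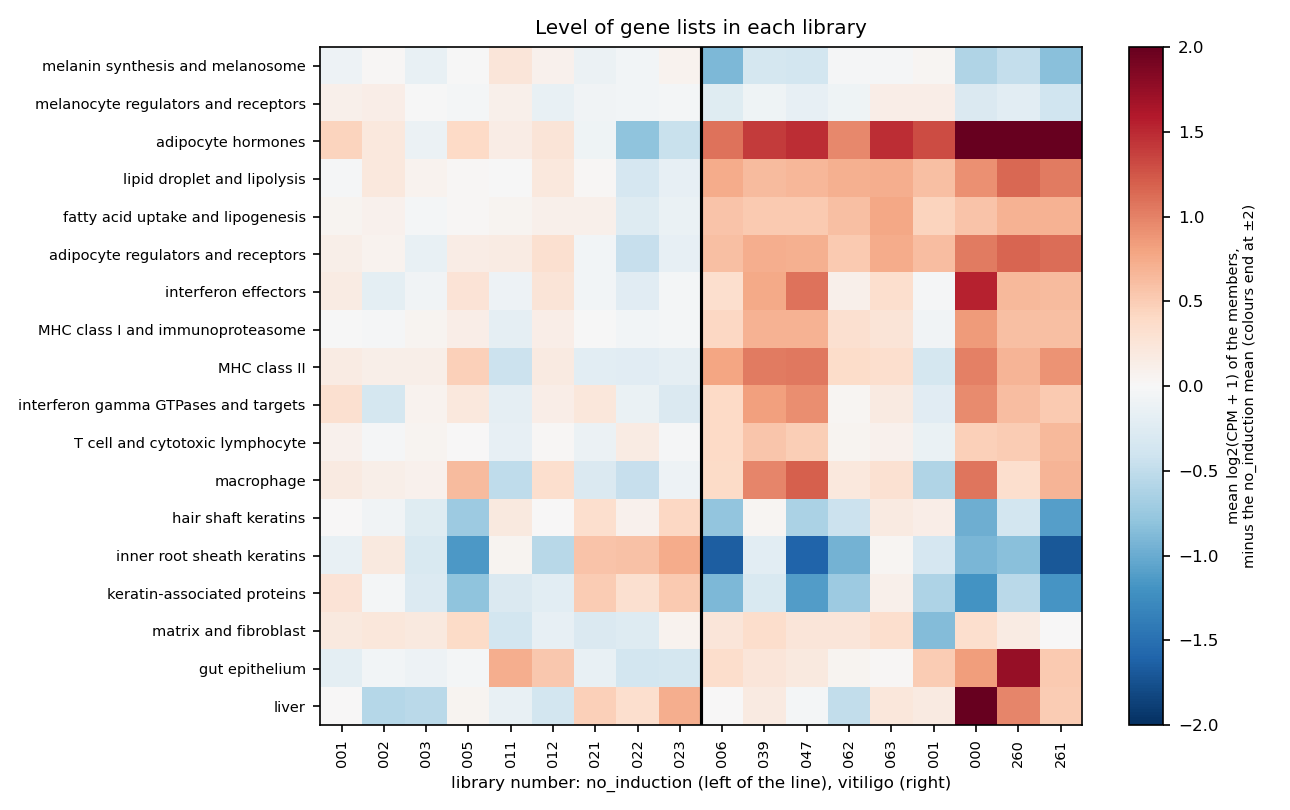
Level of 18 gene lists in each library, as the mean log2(CPM + 1) of the members minus the mean over no_induction, with no_induction left and vitiligo right of the line. Adipocyte lists are raised in all 9 vitiligo libraries, and vitiligo 062, 063 and 001 have the highest pigment and the lowest interferon and class I levels of their group, with 001 alone inside the no_induction range in all 3.

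Vitiligo 001 also stood apart in its dermal genes. Its matrix and fibroblast level was 5.10 against 5.98 to 6.32 in the other 8 vitiligo libraries, its macrophage level was the lowest of the group (4.01) and its class II level 3.60 against 4.28 to 5.0. Without it 2572 genes were called, with 40 interferon effectors, 16 class I genes and 7 pigment genes among them. Leaving out single libraries of either group otherwise gave 688 to 1636 calls.

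Of 34 genes in the list of antioxidant enzymes 6 were called higher and 0 lower (17.6%, median 0.11), and 3 without the libraries holding gut transcripts. Cat, catalase, which breaks down hydrogen peroxide and is abundant in fat and liver, was at 232 to 349 CPM (median 301) in vitiligo and had a median of 177 CPM in no_induction, where the lowest library held 155 CPM (0.60 ± 0.11, adjusted p = 0.00115), with 7 vitiligo libraries above every no_induction library. Sod1 (0.42), the mitochondrial peroxiredoxin Prdx3 (0.36 ± 0.09, adjusted p = 0.0189), Txnrd2 (0.54), Msrb2 (0.89 ± 0.20, adjusted p = 0.00776) and Hp were the others. Hp, the haemoglobin scavenger, is in this list but is not an enzyme. Sod2 was at 99.9 to 145 against 102 to 119 CPM (0.07 ± 0.06, adjusted p = 0.502). Of 35 NRF2 targets and glutathione genes 2 were called higher, a share near the 5.27% of all genes, and 0 to 5 when 1 library was left out (5 without vitiligo 001). They were Gstm4 (0.33 ± 0.09, adjusted p = 0.031) and Gstt1 (0.82 ± 0.22, adjusted p = 0.0233), while the classic targets Hmox1 (-0.02 ± 0.12, adjusted p = 0.952) and Nqo1 (-0.17 ± 0.10, adjusted p = 0.294) did not pass. On the producing side 3 of 29 rose (10 without vitiligo 001, 6 without no_induction 005 and 5 without no_induction 012), Ptgs2 (1.82 ± 0.42, adjusted p = 0.0109), Aox1 (0.96 ± 0.19, adjusted p = 0.00274) and Aox3 (1.12 ± 0.34, adjusted p = 0.048), and Nos2 stood at 0.37 ± 0.28 (adjusted p = 0.414). The stress kinase p38, Mapk14, was at 84.5 to 115 against 99.2 to 126 CPM (-0.06 ± 0.06, adjusted p = 0.57).

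Some rapidly induced genes were called higher, beside 5.27% of all genes. Among 27 genes of the immediate early and heat shock responses, 6 were called higher: among others Nr4a1 (8.64 to 57.5 against 8.88 to 16.8 CPM, 1.36 ± 0.30, adjusted p = 0.00776), Klf2 (0.98 ± 0.20, adjusted p = 0.00501) and Atf3 (1.32 ± 0.33, adjusted p = 0.0172). Without the libraries holding gut transcripts 2 were called, and single libraries moved the count between 3 and 11 (without vitiligo 001). Of 17 glucocorticoid response genes 5 rose, 2 without the libraries holding gut transcripts and 2 to 9 without 1 library (9 without vitiligo 001), including Klf9 (0.65 ± 0.15, adjusted p = 0.0123), Per1 (0.90 ± 0.26, adjusted p = 0.0405) and Dusp1, which both lists hold (1.36 ± 0.40, adjusted p = 0.0399). Per1 and Dusp1 each lost their call in 10 or 11 of the 18 fits without 1 library. In the clock list Arntl (-0.38 ± 0.08, adjusted p = 0.00603) and Npas2 (-0.52 ± 0.14, adjusted p = 0.0272), the partners that drive Per1, were lower. Time of sampling is not stated in the labels, and its part in these genes was not tested.

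Induction was also compared between mice without and with ABX. The change with induction without ABX was set against that with ABX in one fit of 30 libraries, in which 1639 of 14310 genes (11.5%) differed at an adjusted p under 0.05. Hair genes differed most often. Induction went with a median change of 1.60 in 46 keratin-associated proteins under ABX and -0.64 without it, and 40 of 46 had a called difference, all in that direction. Tchh was at 880 ± 553 CPM (SD, n = 6) in no_induction_ABX and 2760 ± 1400 CPM (n = 6) in vitiligo_ABX, a change of 1.65 ± 0.43 (adjusted p = 0.0198), and its difference was -2.58 ± 0.55 (adjusted p = 0.00331). All 10 inner root sheath genes and 12 of 15 hair shaft keratins had called differences.

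Pigment genes differed in the same sense. Pmel was at 5.34 to 38.4 CPM in no_induction_ABX and 22.9 to 70.1 CPM in vitiligo_ABX, where its change of 0.90 ± 0.44 was not called (adjusted p = 0.245), and its difference from the change without ABX was -2.22 ± 0.57 (adjusted p = 0.0117). Tyrp1 (-1.99 ± 0.57, adjusted p = 0.0224), Dct (-1.91 ± 0.52, adjusted p = 0.016), Oca2 (-2.47 ± 0.76, adjusted p = 0.0329) and Trpm1 (-1.89 ± 0.59, adjusted p = 0.0357) had called differences too, and Tyr (-1.69 ± 0.59, adjusted p = 0.0595) and Mlana (-1.93 ± 0.70, adjusted p = 0.0696) did not.

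Interferon effectors had 21 of 46 called differences and class I genes 12 of 22, all of them towards a smaller change or a fall under ABX. The share over all genes, in either direction, was 11.5%. B2m was at 321 ± 46.2 CPM (n = 6) in no_induction_ABX and 265 ± 54.9 CPM (n = 6) in vitiligo_ABX (difference 1.20 ± 0.25, adjusted p = 0.00276), and H2-K1 at 241 ± 15.3 and 225 ± 41.7 CPM (difference 0.97 ± 0.20, adjusted p = 0.00261). Irf7 had a called difference (1.98 ± 0.56, adjusted p = 0.0196), whereas neither Isg15 (1.49 ± 0.56, adjusted p = 0.0764) nor Cxcl9 (0.23 ± 1.02, adjusted p = 0.908) passed.

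Fat genes split by member. Plin4 (difference 1.72 ± 0.31, adjusted p = 0.00103), Pparg (1.07 ± 0.20, adjusted p = 0.00103), Lpl (2.10 ± 0.36, adjusted p = 0.000708) and Nnat (4.21 ± 0.80, adjusted p = 0.0015) rose without ABX and stayed within 0.25 of no change on the log2 scale with it. Lep (2.29 ± 1.34, adjusted p = 0.271) and Adipoq (1.19 ± 0.64, adjusted p = 0.231) had no called difference, from far lower levels: Adipoq was at 3.51 to 15.8 CPM in no_induction_ABX and 5.54 to 48.6 CPM in vitiligo_ABX. Slc1a5 differed as well (1.57 ± 0.24, adjusted p = 0.000397), at 39 ± 6.28 CPM (n = 6) in no_induction_ABX and 42.5 ± 9.74 CPM (n = 6) in vitiligo_ABX. The labels do not say whether the ABX groups were raised, induced and sequenced together with the others, so ABX and cohort cannot be told apart.

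**Figure D5:**
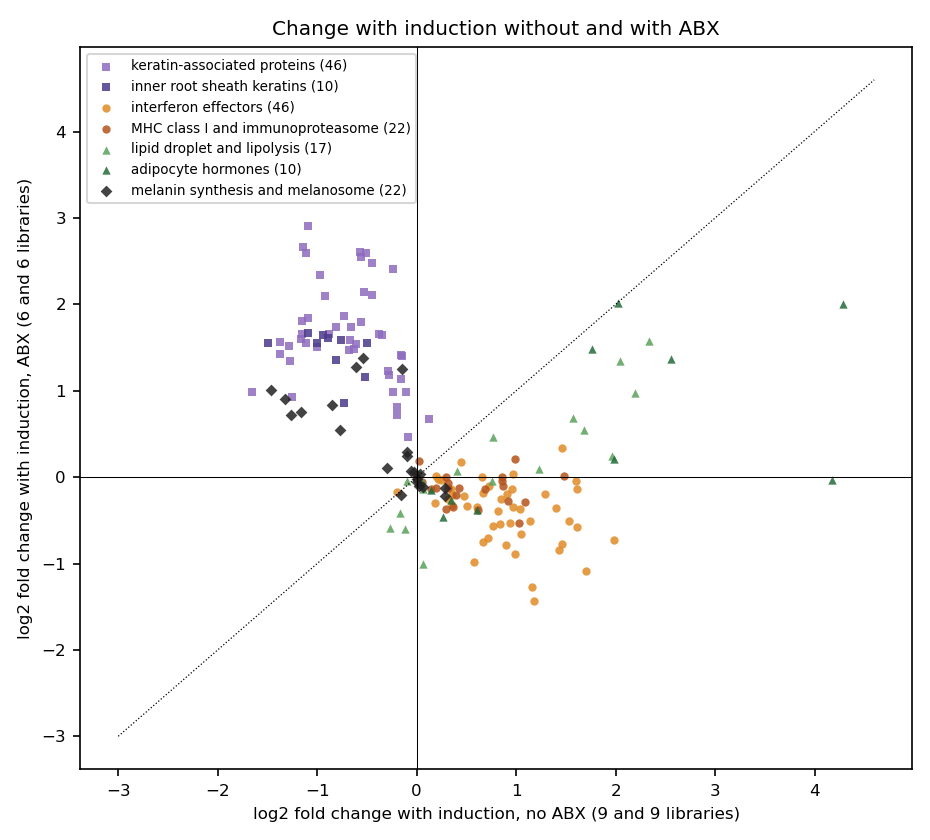
Log2 fold change with induction in the groups without ABX (horizontal, 9 and 9 libraries) and with ABX (vertical, 6 and 6 libraries) for the members of 7 gene lists, with equal change on the dotted line. Keratin-associated and inner root sheath genes lie at the upper left, with medians of 1.60 and 1.55 under ABX, and interferon effectors at the lower right, with a median of -0.34 under ABX.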

How the data were processed

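RNA of mouse tail skin was sequenced as poly(A) libraries on a NovaSeq, per the labels' protocols. Estimated counts per gene and library came in 1 table that the authors deposited. The table used here holds 19021 of 21951 protein-coding genes of GENCODE M21, and 2273 of those not in it have an Ensembl ID after its last one, so some list members were not analysed here (23 of 28 class I genes and 19 of 24 interferon gamma GTPases and targets are in it). The submitters' processing notes name HISAT2, Bowtie2 2.2.8, StringTie 1.3.1 and DESeq2. The genome build, the counter's settings and strand use are not given in the sources used here, so overlapping and antisense genes cannot be told apart. Of 19219 genes used, 3107 (16.2%) held values that were not whole, and all counts were rounded. 1 of 19220 entries, whose symbol was not usable, was left out. The 18 libraries held 15.34e6 to 27.92e6 counts, and in none of the pairs of libraries within a group did counts agree within sampling noise (chi-square per degree of freedom of 7.33 or more).

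Differences were tested with edgeR 4.0.16 in R 4.3.3 (TMM scaling, filterByExpr, quasi-likelihood F test, robust, Benjamini-Hochberg adjustment over all genes tested), and all adjusted p-values come from it. The induction effect without and with ABX was compared by an interaction term over 30 libraries. Values are counts scaled to library size (CPM) on TMM-scaled totals. Alternatives used DESeq2 1.42.0, limma 3.58.1 and sva 3.50.0, other filters and scalings, and fits leaving out each library. The test was tried on simulated data. Gene lists and the groups compared were chosen with earlier results of these data known. Genes were named by a rule: the 10 largest rises and falls called at 1 CPM or more, the 4 members of each list with the smallest p, every called member of lists with 5 or fewer, and a set of pigment, fat, interferon and stress genes. Not every gene that met the rule is named, and the 2 called genes that fell at least 4-fold are not named. The lowest log2 fold change over all genes tested was -2.95, as in the complement and acute phase list. Outside this rule, Acly, Ap3b1, Calr, Canx, Cidec, Col1a1, Elovl6, Fabp2, Fasn, Hps4, Hps5, Ifit3, Krt10, Lyst, Me1, Mx1, Oas3, Pdia3, Plin2, Pnpla2, Psmb10, Psmb8, Rbp4, Slc24a5, Sod1, Trpm1, Txnrd2, Ucp1, Vil1 and Zbp1 were chosen after their values were seen. A gene of the set is not reported here.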

Additional observations from a re-analysis of the deposited data

Results flagged for a closer look

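In 410 sets of 9 libraries (named genes and gene list levels, within each group), 31 values, from 10 libraries, lay further from their nearest neighbour than Dixon's test allows at its 95% level. Chance alone marks about 1 in 20 such sets, and no single value was tested further. List levels are means of log2(CPM + 1). Of the controls, no_induction 003 stood apart in Acaa1b (0.409 CPM, others 0.884 to 1.29), Bpifa6 (1.28 CPM, others 0 to 0.489) and Ifng (0.117 CPM, others 0 to 0). Of the controls, no_induction 022 stood apart in Atf3 (11.3 CPM, others 2.67 to 5.25) and Cxcl9 (2.12 CPM, others 0.31 to 0.766). Vitiligo 001 stood apart in Cd209a (5.29 CPM, others 15.1 to 26.2), H2-Eb1 (87.3 CPM, others 158 to 275), Ifngr1 (40.7 CPM, others 70.8 to 95.4), Mapk14 (84.5 CPM, others 98.4 to 115) and Ovol1 (144 CPM, others 76.8 to 105) and in the list levels of adipocyte precursors (5.24, others 5.74 to 6.13), dendritic and Langerhans cell (2.35, others 2.78 to 3.19), NRF2 targets and glutathione (5.93, others 6.08 to 6.16), cell cycle (5.06, others 4.01 to 4.50) and matrix and fibroblast (5.10, others 5.98 to 6.32). Vitiligo 260 stood apart in Fabp2 (7.53 CPM, others 0 to 1.5) and Vil1 (4.34 CPM, others 0 to 1.28) and in the list level of gut epithelium (3.30, others 1.58 to 2.40). Of the controls, no_induction 012 stood apart in Klf2 (27.3 CPM, others 11.1 to 15.8) and in the list levels of WNT pathway (4.42, others 4.59 to 4.75) and NRF2 targets and glutathione (6.21, others 5.94 to 6.05). Vitiligo 062 stood apart in Krt5 (4480 CPM, others 2010 to 2540) and in the list levels of basal keratinocyte (8.35, others 7.62 to 7.94) and cholesterol synthesis (6.99, others 6.37 to 6.68). Of the controls, no_induction 005 stood apart in Mup9 (0.946 CPM, others 0.115 to 0.398) and in the list level of smooth muscle (6.75, others 4.68 to 5.69). Vitiligo 063 stood apart in Prdm1 (64.1 CPM, others 49 to 56) and in the list level of smooth muscle (5.98, others 4.55 to 5.23). Of the controls, no_induction 011 stood apart in Tyr (23.9 CPM, others 9.81 to 14.5). Vitiligo 000 stood apart in the list levels of p53 and senescence (5.28, others 4.78 to 4.88) and liver (3.93, others 1.01 to 2.48).

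The change with induction differed between the libraries without and with ABX in 60 of 136 named genes (edgeR, interaction term, adjusted p under 0.05). Over all genes the share was 11.5%. Many of the 136 were named for their change without ABX, and that change is part of the difference. A higher share among them is therefore built in, and the 2 shares cannot be compared. The log2 difference is the change without ABX minus the change with it. Among the white fat and adipocyte precursor genes, the difference was positive for Lpl (2.10), Nnat (4.21), Plin4 (1.72), Pnpla2 (1.13), Pparg (1.07), Rbp4 (1.77), Slc2a4 (1.11) and Zfp423 (0.79). Among the genes of fatty acid oxidation and respiration, the difference was positive for Acaa1b (1.20) and Sdhd (0.37). Among the interferon and antigen presentation genes, the difference was positive for B2m (1.20), Cd74 (0.79), Gbp2 (1.43), H2-DMa (0.72), H2-K1 (0.97), H2-Q4 (1.38), H2-Q7 (1.47), Ifi27 (0.93), Ifih1 (1.24), Ifit3 (2.43), Irf7 (1.98), Mx1 (2.26), Nmi (0.71), Oas3 (2.71), Psmb10 (0.83), Psmb8 (0.86) and Zbp1 (2.19). Among the hair genes, the difference was negative for Fgf22 (-0.80), Foxn1 (-1.58), Krt26 (-2.76), Krt27 (-2.56), Krt39 (-1.79), Krtap4-13 (-2.65), Krtap9-1 (-2.79), Ovol1 (-1.15), Tchh (-2.58) and Tchhl1 (-3.04). Among the pigment cell lists, the difference was positive for Fgf2 (1.13) and Zeb2 (1.02). Among the pigment cell lists, the difference was negative for Dct (-1.91), Erbb3 (-0.49), Oca2 (-2.47), Pmel (-2.22), Trpm1 (-1.89) and Tyrp1 (-1.99). Among genes of other lists, it was positive for Aox1 (1.15), Cat (0.66), Cd207 (0.89), Cxcl1 (2.35), Dusp1 (2.79), Gstt1 (1.07), Itgae (0.84), Klf2 (1.74), Klf9 (1.11), Nr4a1 (2.10), Per1 (1.43), Ptprc (1.10), Slc1a5 (1.57) and Sod1 (0.69). Among genes of other lists, it was negative for Prdm1 (-0.74). Cohort is not given in the labels and cannot be told apart from ABX.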

How the results depend on the processing

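No paired analysis was possible because the groups share only 1 library number (001), and nothing in the labels ties same-numbered libraries. The 109 and 8 genes without overlap rest on no model, while the 1070 calls moved with the method: 1745 (729 lower) by DESeq2, 5867 (3150 higher, 2717 lower) by limma-voom with quality weights, 1683 (726 lower) in a fit of all 38 libraries, and 253 (214 higher, 39 lower) at a fold of at least 2. Chosen after seeing the data, leaving out the libraries with gut transcripts gave 511 (330 higher, 181 lower), leaving out those with Y-linked transcripts 606 lower and 1 pigment gene, and the length and GC offset 697 lower. Without the gut transcripts' libraries, 0 pigment, 7 interferon effector, 6 class I and 4 keratin-associated genes were called. By limma-voom 9 pigment, 43 effector and 34 keratin-associated genes were called, and 4437 genes in the comparison with ABX, and at a fold of at least 2, 14 effectors and 2 class I genes. Leaving out 1 library gave 688 to 2572 genes, 523 to 1579 higher, 161 to 993 lower, 0 to 7 pigment genes, 9 to 10 lipid droplet genes, 13 to 40 effectors, 9 to 16 class I genes and 7 to 17 keratin-associated genes. Depth limits Ifng, Cd8a and other genes near 1 CPM.

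With the lipid droplet level as a covariate, 0 genes were called, and 0 in the pigment, lipid droplet, effector, class I and keratin-associated lists. The level does not overlap between groups, which leaves this fit little to tell them apart by, and 35 named genes changed sign (log2 fold change): Acads (-0.044), Adipoq (-0.16), Aox1 (-0.357), B2m (-0.088), Cd209a (-0.06), Cd69 (-0.367), Cd74 (-0.014), Cfd (-0.105), Cidec (-0.232), Col15a1 (-0.088), Dct (0.223), Dusp1 (-1.774), Gstt1 (-0.12), H2-Q7 (-0.072), Ifi27 (-0.086), Ifngr1 (-0.206), Itgad (-0.299), Klf2 (-0.421), Krt26 (0.09), Krt27 (0.017), Krtap4-13 (0.788), Krtap9-1 (0.451), Mup18 (-0.587), Mup9 (-0.113), Nmi (-0.095), Oca2 (0.48), Pmel (0.04), Pnpla2 (-0.082), Pparg (-0.139), Rbp4 (-0.718), Slc2a4 (-0.075), Sod1 (-0.163), Tchh (0.107), Txnrd2 (-0.107) and Zfp423 (-0.179). Signs were compared only for named genes called in the main fit or in the alternative. Among these, no other alternative changed a sign.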
